A study of Mus musculus with 6 samples.

Results

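The genes described here encode the acetylcholine receptor (AChR) of skeletal muscle and the agrin-MuSK machinery that gathers the receptor under the motor nerve terminal. They were taken by gene symbol: Chrna1, Chrnb1, Chrnd, Chrng and Chrne, the subunit genes of the muscle AChR, and Musk, Dok7, Lrp4, Rapsn and Agrn, the scaffold genes. All 10 have a row among the 54532 genes of the count and FPKM tables, and 9 of them had enough reads for testing. The exception was Chrne. The libraries are bulk RNA-seq of mouse primary myoblasts, the cultured progeny of satellite cells, with 3 libraries labelled WT and 3 labelled eIF5A-KO, all labelled day 2 of proliferation. All were grown in DMEM with 10% FBS and, per the labels, FGF at 10 ug/ml. eIF5A is a translation factor that carries the spermidine-derived residue hypusine. The knockout line is Pax7CreERT2/+;eIF5Af/f, in which tamoxifen activates a Cre driven from the Pax7 locus, so that deletion is limited to satellite cells and their progeny. The sources describe the alleles of the WT controls in more than one way, with the Cre allele or without it, and the labels of these libraries say only WT and give no age. For other assays of such cultures, the study took the cells from 3-week-old animals. Nothing in the labels says that libraries of a genotype came from separate animals or cultures, so that p-values measure only the spread between these libraries, which may be technical. The study's supplement speaks of repeated experiments without saying what was repeated. Libraries of a genotype differed by more than counting noise, with a chi-square per degree of freedom of 20.1 to 135 over genes.

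The muscle AChR is a ring of subunits that opens when acetylcholine binds. The gamma subunit (Chrng) belongs to the fetal receptor and is replaced by epsilon (Chrne) as the synapse matures, while alpha (Chrna1), beta (Chrnb1) and delta (Chrnd) are common to both forms. Agrin (Agrn) from the nerve binds LRP4, LRP4 activates the receptor tyrosine kinase MuSK, DOK7 binds MuSK inside the cell and keeps it active, and rapsyn (Rapsn) ties the receptors into clusters. Before innervation, AChR subunit genes come on with myogenic differentiation, largely through E-boxes bound by the MyoD family, and the N-box, an ETS-factor element, directs synaptic transcription.

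The E-boxes are shown here because several subunit genes carry them side by side just ahead of the start site. Of the 10 genes, 7 had an entry among the RefSeq promoter windows (GRCm38.p6, 250 bases before to 50 after a start site), with 9 windows between them. Chrnd, Lrp4 and Rapsn were not matched. The stretches below run from position -200 to -26 of the RefSeq start, overlap no exon annotated in GENCODE M21, and are given 5′ to 3′ on the strand of the gene, at chr2:73580364-73580538 (-) for Chrna1, chr1:87205611-87205785 (+) for Chrng, chr11:70619220-70619394 (-) for Chrne, chr4:58285762-58285936 (+) for Musk and chr5:35056566-35056740 (+) for Dok7. The Chrng stretch lies in an intron of an annotated Chrng transcript that starts further upstream. Capitals mark the E-boxes (CANNTG) and, in Chrne alone, also an N-box (CCGGAA).
Chrna1: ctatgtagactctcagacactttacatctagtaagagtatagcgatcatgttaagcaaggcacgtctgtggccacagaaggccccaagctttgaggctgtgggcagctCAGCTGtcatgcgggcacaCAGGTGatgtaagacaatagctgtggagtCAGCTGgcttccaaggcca
Chrng: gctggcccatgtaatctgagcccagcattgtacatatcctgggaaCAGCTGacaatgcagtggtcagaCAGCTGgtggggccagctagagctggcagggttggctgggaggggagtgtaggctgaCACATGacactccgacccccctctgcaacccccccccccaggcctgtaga
Chrne: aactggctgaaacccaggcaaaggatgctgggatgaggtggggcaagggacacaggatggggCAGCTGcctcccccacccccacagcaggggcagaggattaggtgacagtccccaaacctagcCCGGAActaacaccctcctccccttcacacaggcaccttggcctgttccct
Musk: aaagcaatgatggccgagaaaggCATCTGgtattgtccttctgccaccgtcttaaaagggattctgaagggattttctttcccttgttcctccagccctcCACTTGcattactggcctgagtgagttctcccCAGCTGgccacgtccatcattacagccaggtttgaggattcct
Dok7: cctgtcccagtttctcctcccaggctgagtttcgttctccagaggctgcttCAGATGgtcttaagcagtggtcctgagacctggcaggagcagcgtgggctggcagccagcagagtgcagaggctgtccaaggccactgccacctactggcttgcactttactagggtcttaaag

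Chrna1, Chrng, Chrnb1 and Musk each had 3 E-boxes in the window. The share of all 32851 RefSeq windows of this length with at least 3 was 17.6%, and the share with any was 72.3%. In Chrna1 and in Chrng, 2 of the 3 were CAGCTG, a form found at least 2 times in 1.9% of all windows. These lay at -92 and -44 in Chrna1 and at -155 and -132 in Chrng, counted to the first base of the motif. Musk had CAGCTG at -68 and Chrne at -138, against 16.3% of all windows with at least 1. CACCTG or its complement CAGGTG, present in 20.2% of windows, was found at -73 in Chrna1 and at -29 in Chrnb1. Dok7 had 1 E-box in the first of its windows and Agrn likewise, and the second window of each had none. The N-box or its complement TTCCGG was found in 14.9% of all windows and, among these genes, in Chrne at -76. Both strands were searched, CAGCTG and CACCTG matches are also counted as E-boxes, and a match describes letters, not a bound site.

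**Figure D1:**
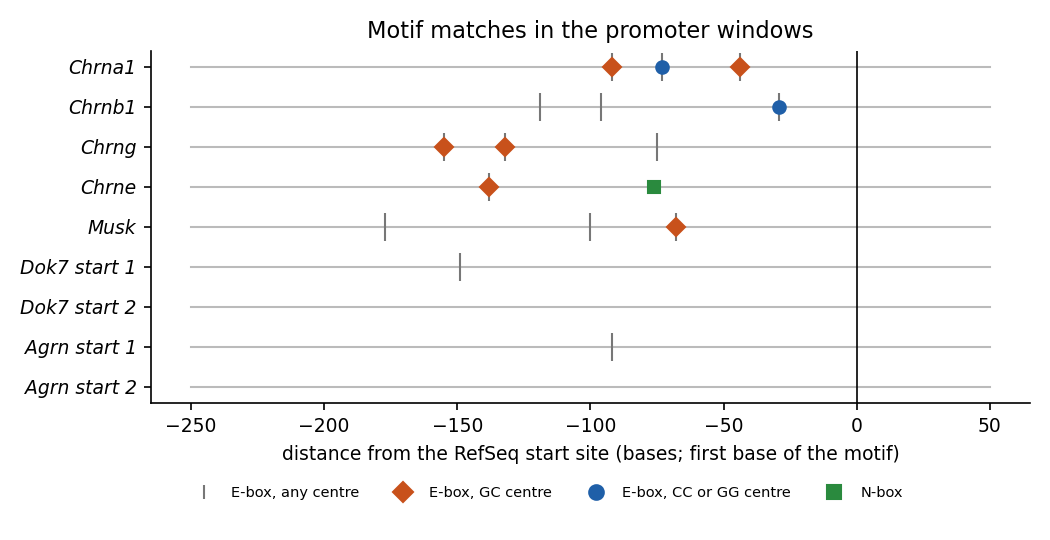
Positions of motif matches in 9 RefSeq promoter windows of 7 genes, in bases from the start site (vertical line), with each gray line 1 window from -250 to 50. Chrna1 and Chrng each carry 2 E-boxes with a GC centre (diamonds), and Chrne is the gene with an N-box (square).

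Total counts ranged from 16281216 to 17734551 per library. The targeted gene gave no separation of the labels: Eif5a stood at 664, 411 and 517 FPKM (fragments per kilobase, a measure adjusted for gene length and library size by the authors) in WT and at 569, 610 and 444 FPKM in those labelled eIF5A-KO. This gave a log2 fold change of 0.02 (95% CI -0.51 to 0.55, edgeR adjusted p = 0.993). Whether the reads counted on Eif5a lie inside the deleted part is not given in the sources used here, and these libraries are therefore called KO-labelled. WT replicate 1 stood apart, with 5.75% of its counts on mitochondrial transcripts against 2.11% to 3.50% in the other libraries and values without it are given where they change a call. The cultures carried myoblast transcripts, with Myod1 at 105 to 292 FPKM and Pax7 at 1.41 to 8.73 FPKM. They also carried markers of other cells: endothelial markers summed to 304 to 595 FPKM in WT and 511 to 751 FPKM in the KO-labelled libraries, and markers of Schwann cells to 59.0 to 88.1 and 95.1 to 107 FPKM. Motor neuron transcripts were at 0 for Chat, Slc18a3 and Mnx1 in every library. In such bulk samples, fewer cells of a type and less RNA per cell cannot be told apart.

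Comparison of the KO-labelled libraries with WT asks how the transcripts of this receptor system stand when satellite cell progeny are labelled as lacking eIF5A. The receptor subunit genes Chrna1 and Chrng and the MuSK adaptor gene Dok7 had the largest differences, all toward lower values in the KO-labelled libraries, at 0.325, 0.288 and 0.250 of the WT level in the fit. Chrnb1 was at 0.573 of it, whereas Chrnd was at 1.19 of it. None of the 9 tested genes passed an adjusted p of 0.05 in edgeR's quasi-likelihood test over 14679 genes (adjusted p from 0.197 to 0.994), and the share of all tested genes that passed was 0.0204%, 3 genes in all. DESeq2 called 3 of the 9 (Chrna1, Chrng and Dok7), where it called 0.341% of all genes with a p-value (92 genes), and limma-voom called 0. An unadjusted p under 0.05 was given to 4 of the 9 (Chrna1, Chrnb1, Chrng and Dok7, all lower), where the share over all tested genes was 6.76%. The median log2 fold change was -0.40 over the 9 genes and -0.01 over all tested genes, with 8 of the 9 below 0.

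**Figure D2:**
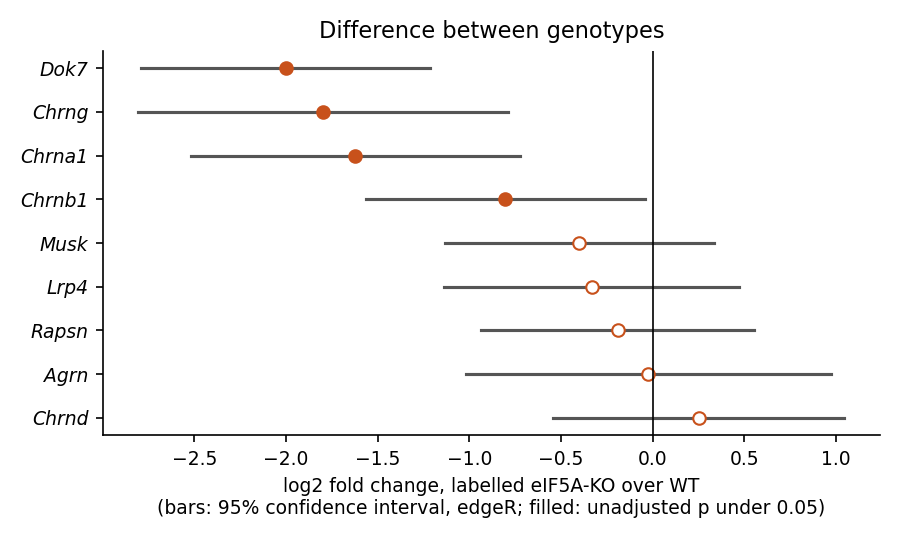
Log2 fold change of each tested gene, KO-labelled libraries over WT (n = 3 and 3). Bars are the 95% confidence interval computed from the edgeR F statistic, and filled points have an unadjusted p under 0.05. The intervals of Dok7, Chrng, Chrna1 and Chrnb1 lie below 0, and those of the other 5 genes span it.

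Chrna1 (ENSMUSG00000027107, chr2:73563215-73580338, GRCm38, minus strand, 9 exons) encodes the acetylcholine-binding alpha subunit. Its level was 19.1, 50.6 and 33.5 FPKM in WT replicates 1 to 3 and 16.9, 9.92 and 6.78 FPKM in the KO-labelled libraries. Every KO-labelled library lay below every WT library, although WT replicate 1 and the first KO-labelled library were close. The means were 34.4 ± 15.7 and 11.2 ± 5.20 FPKM (SD, n = 3 each), and the log2 fold change was -1.62 (SE 0.40, 95% CI -2.52 to -0.72, edgeR unadjusted p = 0.00262, adjusted p = 0.396). Counts behind these levels were 1320, 4227 and 2506 reads in WT and 1225, 739 and 527 in the KO-labelled libraries. A stretch of its transcript from base 3077 to 3306, beyond the coding end at base 1422, aligned over at least 200 bases to transcripts of 37 other genes at 90% identity or more, and how reads that map there were assigned is not given in the sources used here.

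Chrng (ENSMUSG00000026253, chr1:87204657-87212694, plus strand, 12 exons) encodes the fetal gamma subunit. Its level was 1.41, 4.30 and 2.45 FPKM in WT and 1.11, 0.778 and 0.420 FPKM in the KO-labelled libraries. The genotypes did not overlap, and within each the libraries stood in the order seen for Chrna1. The fitted log2 fold change was -1.80 (SE 0.45, 95% CI -2.80 to -0.79, edgeR unadjusted p = 0.00282, adjusted p = 0.398), from 31 to 341 reads a library.

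Chrne (ENSMUSG00000014609, chr11:70614883-70619216, minus strand, 12 exons), which encodes the adult epsilon subunit, was near the limit of detection. It had 1, 0 and 0 reads in WT and 1, 0 and 1 in the KO-labelled libraries, which was too few for testing. Over each genotype that came to 0.0197 CPM (counts per 1000000 counts) in WT (exact Poisson 95% interval 0.0004995 to 0.110) and 0.0389 in the KO-labelled libraries (0.00471 to 0.140), with a ratio of 1.97 whose interval ran from 0.103 to 116. No direction can be read from these counts, and the intervals cover counting error only. Chrng made up 97.4%, 100% and 100% of the summed Chrng and Chrne FPKM in WT and 96.9%, 100% and 92.6% in the KO-labelled libraries (means 99.1 ± 1.51 and 96.5 ± 3.69%; exact two-sided permutation test, p = 0.4, where 0.1 is the smallest p that 3 against 3 allow). The gamma form was thus the prevailing member of the pair in all libraries of both labels. Each share below 100% rested on 1 Chrne read, so that the test of the share reflects single reads and cannot decide a difference. Chrne lies over a gene on the opposite strand, 4930544D05Rik, so that its few reads cannot be placed with certainty.

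Chrnb1 (ENSMUSG00000041189, chr11:69784036-69795943, minus strand, 11 exons) encodes the beta subunit. Its level was 4.83, 12.4 and 11.2 FPKM in WT and 7.07, 4.49 and 4.71 FPKM in the KO-labelled libraries. WT replicate 1 lay among the KO-labelled libraries, so that the genotypes overlapped. The log2 fold change was -0.80 (SE 0.34, 95% CI -1.57 to -0.042, edgeR unadjusted p = 0.0407, adjusted p = 0.705), and with 1 library left out it ran from -1.11 without WT replicate 1 (edgeR adjusted p = 0.0682) to -0.56 without WT replicate 2 (0.636). The unadjusted p was above 0.05 in 4 of these 6 cases and in limma-voom (unadjusted p = 0.0705).

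Chrnd (ENSMUSG00000026251, chr1:87190607-87200070, plus strand, 12 exons), the delta subunit gene, lies just ahead of Chrng on chromosome 1 and on the same strand. It differed from Chrng in its values: 8.75, 20.3 and 14.0 FPKM in WT and 24.7, 16.0 and 10.7 FPKM in the KO-labelled libraries. The highest value of all libraries was in the first KO-labelled library, and the genotypes overlapped. The fitted log2 fold change was 0.25 (SE 0.35, 95% CI -0.54 to 1.05, edgeR adjusted p = 0.949).

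**Figure D3:**
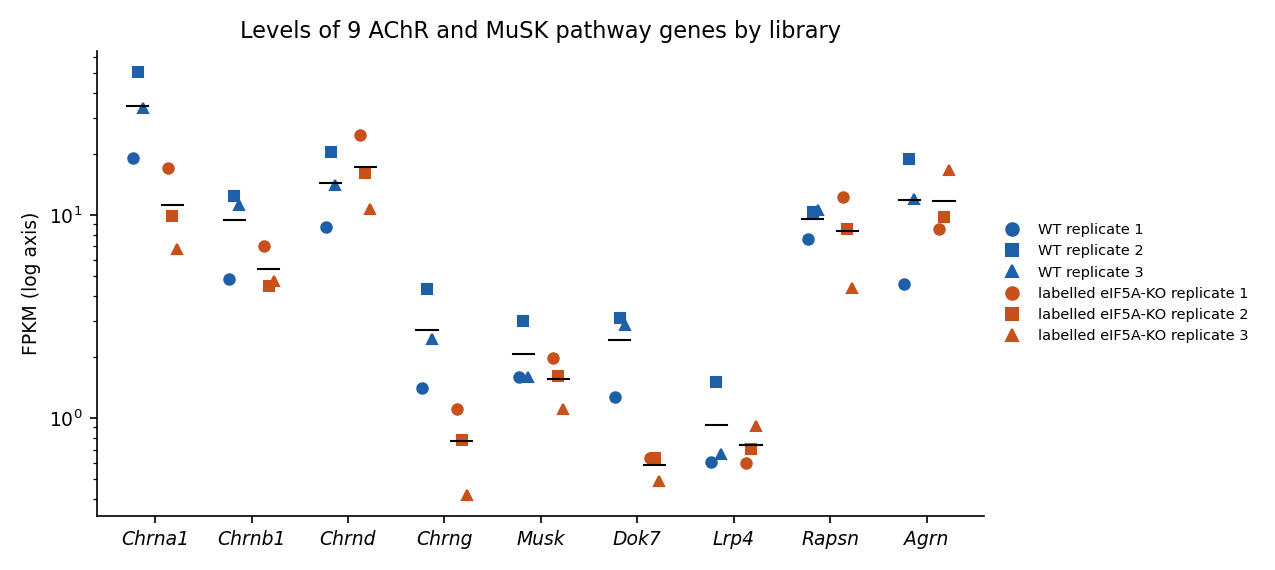
FPKM of the 9 tested genes in each library (log axis), with WT libraries in blue, KO-labelled libraries in orange, marker shape for the replicate number and a line at the mean of each genotype. Blue and orange points do not overlap for Chrna1, Chrng and Dok7, and they overlap for the other 6 genes.

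In WT, the mean levels per length ran from Chrna1 (34.4 FPKM) over Chrnd (14.3), Agrn (11.8), Rapsn (9.52), Chrnb1 (9.45), Chrng (2.72), Dok7 (2.42) and Musk (2.06) to Lrp4 (0.926 FPKM). Each gene in this order overlapped the next over the 3 WT libraries, except that all values of Chrnb1 stood above those of Chrng and all values of Musk above those of Lrp4. In the KO-labelled libraries, Chrnd led with 17.2 FPKM, followed by Agrn (11.7), Chrna1 (11.2), Rapsn (8.38), Chrnb1 (5.42), Musk (1.56), Chrng (0.768), Lrp4 (0.738) and Dok7 (0.587 FPKM), where all neighbours overlapped but Chrnb1 and Musk. The summed level of the subunit genes was 34.2, 87.5 and 61.1 FPKM in WT and 49.9, 31.2 and 22.7 FPKM in the KO-labelled libraries, and the genotypes overlapped (means 60.9 ± 26.7 and 34.6 ± 13.9 FPKM; exact two-sided permutation test, p = 0.2). The difference of the means, -26.3 FPKM, became -39.7 FPKM without WT replicate 1 (exact p = 0.1, the smallest that 2 against 3 allow) and -13.0 FPKM without WT replicate 2 (exact p = 0.4).

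The ratio of Chrna1 to Chrnd within a library does not depend on how libraries are scaled, and it separated the genotypes. It was 2.19, 2.49 and 2.40 in WT and 0.685, 0.619 and 0.632 in the KO-labelled libraries, so that Chrna1 was above Chrnd in 3 of 3 WT libraries and in 0 of 3 of the others. The ratio was 3.65-fold lower in the KO-labelled libraries, a log2 difference of -1.87 against SDs of 0.095 and 0.077 within the genotypes, and it stayed between -1.92 and -1.83 with any single library left out. The ratio of Chrnd to Chrng was 6.22, 4.73 and 5.70 in WT and 22.3, 20.6 and 25.5 in the KO-labelled libraries (log2 difference 2.04). In contrast, the ratio of Chrna1 to Chrng was 13.6, 11.8 and 13.7 in WT and 15.3, 12.8 and 16.1 in the KO-labelled libraries, which overlapped (log2 difference 0.17). These ratios were chosen after their values were seen and are given as a description, with no test.

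**Figure D4:**
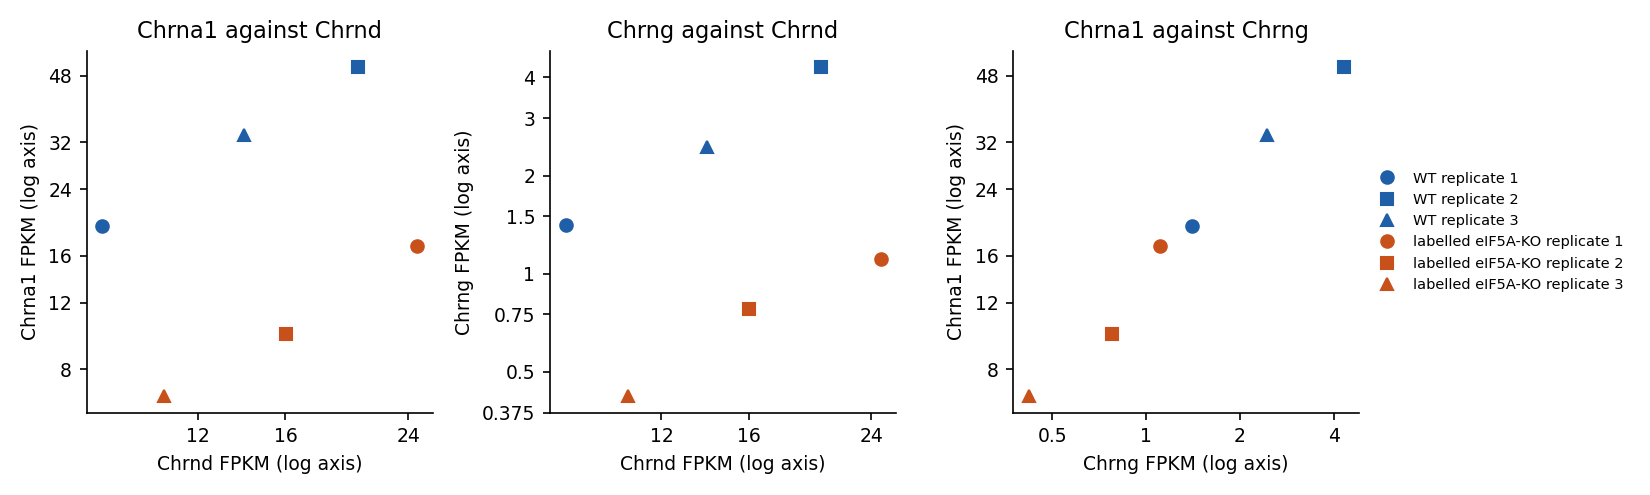
FPKM of pairs of subunit genes in each library (both axes on a log scale), with WT in blue, KO-labelled libraries in orange and marker shape for the replicate number. Against Chrnd, the Chrna1 and Chrng points form a separate row for each label, whereas Chrna1 against Chrng forms a single row in which the labels follow each other.

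Of the 36 ratios between the 9 genes, 20 did not overlap between the genotypes, where the share over 107450470 pairs of tested genes with a count in every library was 13.4%. All 18 ratios of Chrna1, Chrng or Dok7 to one of the other 6 genes were among these 20. Ratios among Chrna1, Chrng and Dok7 overlapped in 3 of 3 cases, and ratios among the other 6 genes overlapped in 13 of 15, the exceptions being Chrnb1 to Chrnd and Chrnd to Musk. The 3 genes are those whose own levels did not overlap, so that this split of the ratios is a description, and the 36 ratios share genes and are not independent.

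Of the scaffold genes, Dok7 (ENSMUSG00000044716, chr5:35056766-35087839, plus strand, 9 exons) had the largest fitted difference, and in edgeR over all 6 libraries the largest of the 9 genes, with an interval that overlapped those of Chrng and Chrna1. Chrng was further from 0 without WT replicate 3 or without the first KO-labelled library, and Chrna1 was with limma on log2(FPKM + 1), at -1.52 against -1.06 for Dok7. Its level was 1.26, 3.12 and 2.86 FPKM in WT and 0.638, 0.633 and 0.489 FPKM in the KO-labelled libraries. The lowest WT library was above the highest KO-labelled library, and the latter lay close together. The means were 2.42 ± 1.00 and 0.587 ± 0.0851 FPKM (SD, n = 3 each), and the log2 fold change was -2.00 (SE 0.35, 95% CI -2.79 to -1.21, edgeR unadjusted p = 0.000254, adjusted p = 0.197), from 37 to 254 reads a library. Groups that did not overlap in CPM, with lower values in the KO-labelled libraries, were found for 3 of the 9 genes (Chrna1, Chrng and Dok7) and for 6.83% of all tested genes.

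Musk (ENSMUSG00000057280, chr4:58285960-58374303, plus strand, 16 exons), the receptor kinase that DOK7 binds, was at 1.58, 2.99 and 1.60 FPKM in WT and at 1.98, 1.61 and 1.11 FPKM in the KO-labelled libraries. The genotypes overlapped, with WT replicate 2 above the rest. The log2 fold change was -0.40 (SE 0.33, 95% CI -1.13 to 0.33, edgeR adjusted p = 0.910), and it was -0.033 without WT replicate 2 and -0.20 without the third KO-labelled library. The Musk to Dok7 ratio was 1.25, 0.958 and 0.558 in WT and 3.09, 2.54 and 2.26 in the KO-labelled libraries, so that Musk was the more abundant of the pair per length in all KO-labelled libraries and in 1 of the WT libraries.

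Lrp4 (ENSMUSG00000027253, chr2:91457511-91513779, plus strand, 38 exons), the agrin receptor, was at 0.606, 1.51 and 0.664 FPKM in WT and at 0.600, 0.701 and 0.914 FPKM in the KO-labelled libraries. All values but that of WT replicate 2 were close together. The fitted log2 fold change was -0.33 (SE 0.36, 95% CI -1.14 to 0.47, edgeR adjusted p = 0.935), and it was 0.21 without WT replicate 2. Rapsn (ENSMUSG00000002104, chr2:91035620-91045729, plus strand, 8 exons), the receptor-clustering scaffold, was at 7.63, 10.3 and 10.6 FPKM in WT and at 12.2, 8.49 and 4.39 FPKM in the KO-labelled libraries. Its highest and its lowest value were both in KO-labelled libraries, and the log2 fold change was -0.19 (SE 0.33, 95% CI -0.94 to 0.55, edgeR adjusted p = 0.963).

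Agrn (ENSMUSG00000041936, chr4:156165290-156197488, minus strand, 36 exons), which nerve, muscle and many other cells transcribe, was at 4.59, 18.9 and 12.0 FPKM in WT and at 8.56, 9.80 and 16.7 FPKM in the KO-labelled libraries. The WT libraries spanned the range of the others, and the log2 fold change was -0.024 (SE 0.44, 95% CI -1.02 to 0.97, edgeR adjusted p = 0.994). A gene count does not separate the neural splice form from the others. The summed level of the 5 scaffold genes was 15.7, 36.9 and 27.7 FPKM in WT and 24.0, 21.2 and 23.6 FPKM in the KO-labelled libraries (means 26.7 ± 10.6 and 22.9 ± 1.50 FPKM; exact two-sided permutation test, p = 0.7), and the difference of -3.79 FPKM became -9.33 FPKM without WT replicate 1 and 1.26 FPKM without WT replicate 2.

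The libraries of a label differed among themselves in a way that many of the genes shared. WT replicate 2 held the highest WT value of Chrna1, Chrnb1, Chrnd, Chrng, Musk, Dok7, Lrp4 and Agrn, and among the KO-labelled libraries the first held the highest value of Chrna1, Chrnb1, Chrnd, Chrng, Musk, Dok7 and Rapsn. Agrn and Lrp4 went the other way there, with their highest value in the third. Without WT replicate 1, the log2 fold changes of Chrna1, Chrng and Dok7 were -1.90, -2.10 and -2.30 and all 3 genes passed the adjusted threshold (edgeR adjusted p = 0.0366, 0.0458 and 0.00436), as did 56 genes in all, 0.372% of those tested. Without WT replicate 2 the same fold changes were -1.23, -1.30 and -1.78, and the median of the 9 genes was -0.13. Over the 16 alternatives run, the adjusted p ranged from 6.67e-10 to 0.843 for Chrna1, from 8.58e-07 to 0.826 for Chrng and from 5.63e-08 to 0.735 for Dok7, lowest without a filter on low counts and highest without the second KO-labelled library. The 3 genes kept a log2 fold change below -1.2 with any single library left out, as the plot of left-out libraries shows.

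**Figure D5:**
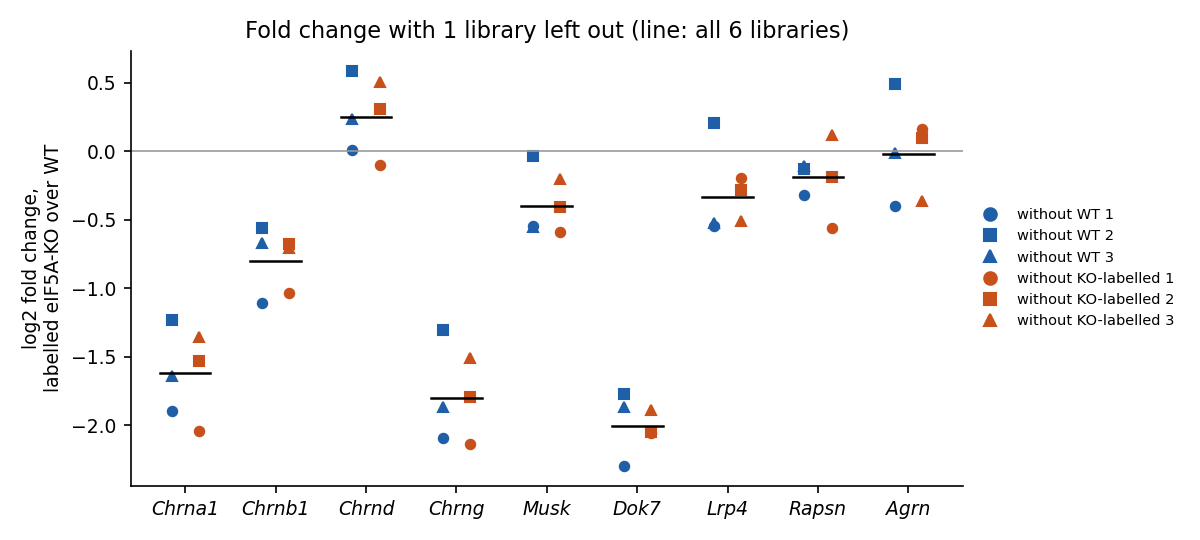
Log2 fold change (KO-labelled libraries over WT, edgeR) of each tested gene with 1 library left out, with the color for the label and the shape for the number of that library, and a line for the value over all 6 libraries. Dok7, Chrng and Chrna1 stay below 0 throughout, and Chrnd, Lrp4, Rapsn and Agrn have points on both sides of 0.

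Regulators that bind or act on AChR promoters were next examined as a list of 24 genes, of which 22 were tested. An unadjusted p under 0.05 was given to 0 higher and 2 lower, Myog and Id2, where the share over all tested genes was 6.76%. After adjustment 0 passed in edgeR as reported or in limma-voom (1 in DESeq2, Id2), and the list median was 0.07. Myog, the myogenin gene, whose product binds E-boxes of AChR genes, was at 9.49, 50.5 and 21.4 FPKM in WT and at 5.92, 3.39 and 1.40 FPKM in the KO-labelled libraries. These did not overlap, and the libraries stood in the same order as for Chrna1 and Chrng (log2 fold change -2.91, SE 0.63, edgeR unadjusted p = 0.00119, adjusted p = 0.362). Myog passed in 3 of the 16 alternatives: without WT replicate 1 (edgeR adjusted p = 0.0182), with the replicate block (0.0331) and without a filter on low counts (7.32e-27). Without WT replicate 2 its log2 fold change was -2.10 (edgeR adjusted p = 0.372). Its highest adjusted p was 0.735, in edgeR without the second KO-labelled library. Id2, an inhibitor of E-box binding, was at 45.5, 53.3 and 46.6 FPKM in WT and at 31.6, 25.5 and 29.5 FPKM in the KO-labelled libraries (log2 fold change -0.75, SE 0.17, edgeR adjusted p = 0.362). Myod1 was at 140, 292 and 233 FPKM in WT and at 186, 146 and 105 FPKM in the KO-labelled libraries, which overlapped (log2 fold change -0.61, SE 0.30, edgeR adjusted p = 0.794). Id1 had the highest mean of the list, 360 FPKM, and Dach2, a repressor that links muscle activity to AChR genes, had at most 0.0123 FPKM.

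Differentiated muscle markers had lower values in the KO-labelled libraries, as Chrna1 and Chrng did. Of 22 tested among 25, 22 had a log2 fold change below 0, and the median was -0.65. An unadjusted p under 0.05 was given to 9 of them (Myog, Mymk, Actn3, Myh1, Myh3, Tnnt1, Tnni2, Ttn and Ryr1), where the share over all tested genes was 6.76%. For 7 the genotypes did not overlap in CPM, with lower values in the KO-labelled libraries, against 6.83% of all tested genes. None of these markers passed after adjustment in limma-voom or in edgeR as reported, and Mymk passed in DESeq2. Without a filter on low counts, 11 of the 25 passed in edgeR, all lower and with Myog, Mymk, Ttn and Ryr1 among them, where 249 of 26956 genes passed. Myog also passed with the replicate block, and Myog, Ttn and Ryr1 passed without WT replicate 1 (edgeR adjusted p = 0.0182, 0.0458 and 0.0467). Without WT replicate 2, Ttn, Ryr1, Myh3, Actn3 and Tnni2 had an unadjusted p above 0.05 (edgeR, 0.114, 0.0562, 0.126, 0.0801 and 0.161). Myog, Mymk, Myh1 and Tnnt1 stayed under it. In limma-voom, Ttn, Myh3 and Tnni2 had an unadjusted p above 0.05. The summed level of the 25 markers was 256 to 469 FPKM in WT and 185 to 259 FPKM in the KO-labelled libraries. Mymk, the myoblast fusion protein myomaker, was at 0.968, 5.11 and 2.95 FPKM in WT and at 0.923, 0.234 and 0.0747 FPKM in the KO-labelled libraries (log2 fold change -2.69, SE 0.73, edgeR adjusted p = 0.423). Of 9 tested myoblast and satellite cell markers, 7 were below 0 and 1 had an unadjusted p under 0.05, Pax7 (log2 fold change -1.49, SE 0.43, edgeR adjusted p = 0.484), with a median of -0.36. Pax7 passed in DESeq2 (adjusted p = 0.0498) and in edgeR without WT replicate 1 (adjusted p = 0.0278) or without a filter (adjusted p = 5.39e-07). Without WT replicate 2 its log2 fold change was -0.84 (edgeR adjusted p = 0.506). The part of the number of differentiating cells in the AChR values was not tested.

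Markers of mural, endothelial, Schwann and macrophage origin were mostly above 0, and those of fibroblasts were not. Over all tested genes in edgeR, 6.76% had an unadjusted p under 0.05 and 0.0204% passed after adjustment. All 8 mural cell markers were above 0 with a median of 0.52 and sums of 91.2 to 143 FPKM in WT against 156 to 181 FPKM in the KO-labelled libraries, 4 (Myh11, Pdgfrb, Cspg4 and Kcnj8) had an unadjusted p under 0.05 and Myh11 passed after adjustment (log2 fold change 1.51, SE 0.17, edgeR adjusted p = 0.0486, 1.71e-09 to 0.315 over the alternatives). DESeq2 and edgeR without a filter called Myh11 and Pdgfrb (adjusted p = 0.0497 and 0.0279 for Pdgfrb). All 10 endothelial markers were above 0 (median 0.39, with an unadjusted p under 0.05 for Emcn), as were 8 of 8 tested Schwann cell and glia markers (median 0.32, with Ngfr among those with an unadjusted p under 0.05). Macrophage markers had 8 of 10 above 0 and a median of 0.31 with summed levels of 47.2 to 99.4 and 47.8 to 128 FPKM and an unadjusted p under 0.05 for Cd68, which passed in edgeR without a filter (adjusted p = 0.0252), and fibroblast markers had 6 of 10 below 0 and a median of -0.12 with 851 to 1160 and 913 to 1060 FPKM and such a p for Col1a1 and Col1a2, both higher. Of 12 neuron markers 4 were tested (median 0.08, sums 8.88 to 16.9 and 14.6 to 15.5 FPKM), with such a p for Syp, higher, and Map2, lower. The part of these cells in the values of Agrn, Lrp4 and the other genes was not tested.

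In the rest of the pathway no gene passed after adjustment in edgeR, DESeq2 or limma-voom. AChR clustering effectors downstream of MuSK, among them Rac1, Cdc42, Src and Pak1, were tested in 32 of 32 cases. An unadjusted p under 0.05 was given to 0 of them, and the median was -0.06. Pak1, a kinase that relays MuSK signals to actin, had the smallest p (log2 fold change -0.32, SE 0.16, edgeR adjusted p = 0.805), and Cdc42 had the highest mean, 170 FPKM. The neuregulin and ETS list (8 of 10 tested, median -0.05) and the AChR assembly and glycosylation list (11 of 11 tested, median 0.14) each had 0 genes with an unadjusted p under 0.05. Etv5, an ETS factor of synaptic nuclei, was at 8.71, 16.2 and 10.1 FPKM in WT and at 9.58, 7.85 and 6.78 FPKM in the KO-labelled libraries (log2 fold change -0.54, SE 0.25, edgeR adjusted p = 0.785). Prkar1a led the first of these lists with a mean of 119 FPKM and the chaperone gene Calr the second with 356 FPKM.

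Genes of the synaptic basal lamina and esterase (14 of 18 tested) had 0 with an unadjusted p under 0.05 and a median of 0.27. Col4a1, the most abundant of them, was at 112, 389 and 272 FPKM in WT and at 325, 301 and 364 FPKM in the KO-labelled libraries, with the lowest value in WT replicate 1, as for Agrn. Ache, the acetylcholinesterase gene, had 0.101 to 0.409 FPKM in WT and 0.134 to 0.249 FPKM in the KO-labelled libraries (log2 fold change -0.17, SE 0.48, edgeR adjusted p = 0.976). Of the 10 synapse-associated dystrophin-glycoprotein genes, all tested, 3 had a log2 fold change above 0 and 7 below, with a median of -0.09. Dag1, the dystroglycan gene, had the highest mean of these, 44.2 FPKM.

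Neuronal-type AChR subunits were scarce in all libraries. Of 11 genes, 2 were tested and 3 had no read in any library. Their summed level was 0.257 to 0.538 FPKM in WT and 0.140 to 0.457 FPKM in the KO-labelled libraries, far under the muscle subunits. Chrna7, which forms receptors without other subunits, was at 0.184, 0.291 and 0.0910 FPKM in WT and at 0, 0.144 and 0.0877 FPKM in the KO-labelled libraries (log2 fold change -1.07, SE 0.66, edgeR adjusted p = 0.863). Chrnb2 had the highest mean, 0.153 FPKM.

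The subunit genes are related but share no long identical stretch. Coding sequences of the 5 subunit genes were 58.1% to 65% identical between pairs over the bases aligned without gaps, with Chrnd and Chrng the closest. Over whole transcripts, the longest exact run that a pair shared had 24 bases. Of the 10 genes, Chrne and Rapsn overlap a gene on the opposite strand (Gm13778 for Rapsn), and the library kit is not stated to keep strand.

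Among 13601 other tested genes with a mean of at least 1 CPM, the 5 whose library profile was most like the mean profile of the 4 tested subunit genes were Ank1, Serinc2, Ntn5, Ppfia4 and Myh1. Likeness was the root mean square difference of log2 CPM over the 6 libraries after each profile was centred at its own mean, and it was 0.134, 0.152, 0.194, 0.219 and 0.226 in that order. On the same measure the subunit genes themselves were farther from their mean, at 0.245 for Chrnb1, 0.334 for Chrna1, 0.419 for Chrng and 0.609 for Chrnd. The 5 genes were picked as the closest of 13601, so that their smaller distances follow largely from that choice. Ank1, the gene of the membrane adaptor ankyrin 1, was at 0.974, 2.01 and 1.62 FPKM in WT and at 0.968, 0.662 and 0.476 FPKM in the KO-labelled libraries. Myh1, a fast myosin heavy chain gene, was at 0.641, 1.75 and 0.987 FPKM in WT and at 0.563, 0.510 and 0.409 FPKM in the KO-labelled libraries. Ppfia4 lies 4235 bases from Myog. All points share the same 6 libraries, and these profiles were ranked and not tested.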

How the data were processed

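Bulk RNA-seq libraries of primary myoblasts, 3 labelled WT and 3 labelled eIF5A-KO, were grouped by genotype label. Per the labels and methods, the authors extracted RNA with TRIzol, used an NEBNext Ultra kit and mapped reads to mm10 with HISAT. The methods name DEGSeq2 for coverage, and the version, annotation and rule for multi-mapped reads are not given in the sources used here. The authors deposited raw counts per gene. They also deposited FPKM, which divide the counts by gene length and a constant per library. Gene lengths are other values of the authors' tables. Of the value columns, 0 belonged to no sample. Gene spans were checked against GENCODE M21.

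Counts were tested with edgeR 4.0.16 in R 4.3.3 (filterByExpr, TMM, quasi-likelihood F test, prior count of 2, Benjamini-Hochberg adjustment over 14679 genes), without a covariate, and the script was tested on simulated data. DESeq2 1.42.0, limma 3.58.1 (voom, and log2(FPKM + 1) or log2(FPKM + 0.1)), other scaling factors, other filters, a replicate block and leaving out each library were alternatives. Standard errors in edgeR were the size of the log2 fold change divided by the square root of the F statistic. Intervals built on them exclude 0 where the unadjusted p is under 0.05, and so repeat that test. Single values used exact permutation tests. Transcripts were aligned with blastn 2.17.0 (at least 200 bases at 90% identity) and Biopython 1.88, and motifs were searched in RefSeq promoter windows of GRCm38.p6. Named genes were the 10 receptor and scaffold genes, Eif5a, those list members whose unadjusted p was under 0.05, for each list its most abundant gene and up to 3 with its smallest p, and 5 genes by likeness. Some list genes that meet this rule are not reported here. Others named with values (Ache, Dach2, Myod1, Pax7) were chosen after their values were seen, as were the ratios. The members and lists were chosen with earlier results of these data known. Total counts were 16281216 to 17734551 per library. Libraries of a genotype differed by more than counting noise, so that the fold-change errors reflect the spread between libraries as well as depth, and intervals from counts cover counting error only.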

Additional observations from a re-analysis of the deposited data

How the results depend on the processing

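Chrna1, Chrng, Dok7 and Chrnb1 kept their direction under every alternative run, and so did Musk, which ran from -0.59 to -0.033 with 1 library left out. The count of the 9 genes with an adjusted p under 0.05 was 0 in edgeR as reported (4 with an unadjusted p under 0.05) and 3 without a filter, 3 with DESeq2, 1 with the replicate block (Dok7) and 0 to 3 with 1 library left out, the 3 being Chrna1, Chrng and Dok7 without WT replicate 1. The unadjusted count was 3 or 4 throughout. Over all tested genes, the adjusted count of 3 became 0 with DESeq2 size factors in edgeR, with library size alone, with at least 10 counts in every library, with limma-voom and with limma on log2(FPKM + 1) or log2(FPKM + 0.1) (unadjusted 992, 966, 907, 961, 980 and 980), and 249 without a filter, 92 with DESeq2, 24 with the replicate block and 0 to 56 with 1 library left out, where 56 came without WT replicate 1 and 0 in the other cases (unadjusted 585 to 1318). Genes tested were 14679 in edgeR as reported, 26956 without a filter, 26954 with DESeq2 and 13454 with at least 10 counts in every library. With 1 library left out they were 14947 to 15085. The cause of the changes in these counts was not tested. Same-numbered libraries did not deviate together (correlations 0.084, -0.16 and 0.105), 2 of the 3 WT libraries deviated most like a library of another number, the numbers were not taken to pair them, and the replicate block moved no other call among the 9 genes.

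Direction was not stable for genes near 0. With 1 library left out, Chrnd ran from -0.10 to 0.59, Lrp4 from -0.55 to 0.21, Rapsn from -0.56 to 0.12, Agrn from -0.40 to 0.49, Eif5a from -0.13 to 0.23 and the difference of the summed scaffold genes from -9.33 to 1.26 FPKM, and the cause was not tested. Agrn was also above 0 with limma-voom (0.13), limma on log2(FPKM + 1) (0.11) and log2(FPKM + 0.1) (0.14) and the replicate block (0.14). The median of the 9 genes ran from -0.59 to -0.13 with 1 library left out. Read counts were low for Chrne, at 0 or 1 a library, and were 31 to 341 a library for Chrng, Dok7, Musk and Lrp4.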
